A study of Mus musculus with 24 samples.

Results

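The synaptic vesicle release machinery is the group of proteins that stores neurotransmitter in vesicles, brings the vesicles to the presynaptic membrane and fuses them with it when calcium enters. It is taken here as 43 genes, chosen as a list of SNAREs, synaptotagmins, active zone and vesicle proteins and found by GENCODE name among the 55385 gene identifiers of the count tables. Each of the 43 matched 1 identifier, and all 43 had enough counts to be tested in every comparison, with 57 counts of Doc2a as the lowest value in any mouse.

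At the synapse, SNARE proteins on the vesicle and on the cell membrane zip together and pull the membranes into contact, while synaptotagmins sense calcium and complexins hold the assembly ready. Synapsins tether the reserve of vesicles, and Rab3, RIM, Munc13 and the large scaffold proteins of the active zone place vesicles at the release site. In the hippocampus most neurons are excitatory and load their vesicles with glutamate.

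The data are RNA sequencing of the hippocampus of 24 mice, male and female, 16 to 22 weeks old, in 6 groups of 4. All mice had both Tsc1 copies floxed (Tsc1 f/f) and received tamoxifen on 4 days. Controls (Tsc1-Cre-) lacked the Camk2a-CreERT2 transgene, so that Tsc1 was kept, and were taken on day 8 after the start of tamoxifen. Tsc1-Cre+ mice carried the transgene and were taken on day 4, 6, 8 or 13 with no other drug. A further group of Tsc1-Cre+ mice received rapamycin, an inhibitor of mTORC1, at 10 mg/kg daily from day 4 and was taken on day 13. Because the Camk2a promoter drives Cre, Tsc1 is removed from Camk2a-expressing neurons only, whereas the RNA comes from all cells of the tissue. The animal numbers of the day 8 mice belong to the number series of the controls, and each of the remaining groups has number series of its own, so that on day 4, day 6, day 13 and under rapamycin time point and number series cannot be told apart.

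The depth per mouse, as total counts, had a median of 55582027 and lay between 28208561 and 126435936. They were 50460565 to 61083014 in controls, 56239855 to 60914278 on day 4, 51363380 to 62429111 on day 6, 53564370 to 59124484 on day 8, 38423852 to 126435936 on day 13 and 28208561 to 54924199 under rapamycin. Levels are CPM, the counts of a gene relative to the library total after scaling with TMM factors, and mice are given in the order A to D within each group. A gene is called at an edgeR p under 0.05, adjusted over all genes tested, together with an absolute log2 fold change over 0.5. Tsc1 was at 109, 103, 106 and 103 CPM in controls, a mean of 105 ± 3.21 (SD, n = 4), and every one of the 20 Tsc1-Cre+ mice was lower, between 57.4 and 81.7 CPM. Xist, the X-inactivation transcript of female mice, was at 3.12, 1055, 636 and 1070 CPM in controls. It was at 2.37, 3.08, 1.72 and 946 CPM on day 4 and 902, 2.42, 2.87 and 2.12 on day 6, so that the sexes were not balanced. With Xist as a covariate 107 of all genes were called on day 4, in place of 172, and 195 on day 6, in place of 332.

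The 43 genes held 1.20% to 1.43% of all counts of a mouse. Compared per kb of exon, Snap25 was the most abundant of them in controls at 179 CPM per kb, followed by Cplx2 at 164, Syt1 at 151, Slc17a7 at 121 and Nsf at 105 CPM per kb. Cplx3 at 0.748, Doc2a at 1.17 and Syn3 at 2.65 CPM per kb were the least abundant. In several families 1 gene stood far above the rest, as Syt1 did among the synaptotagmins, Snap25 among the SNAREs and Slc17a7 over Slc17a6. Markers of the labelled tissue were present, as Map2 of neurons was at 1690 to 2419 CPM and Camk2a of excitatory neurons at 1256 to 2589 CPM over the 24 mice, and no gene of 15 marker lists was at 0 in all mice.

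**Figure D1:**
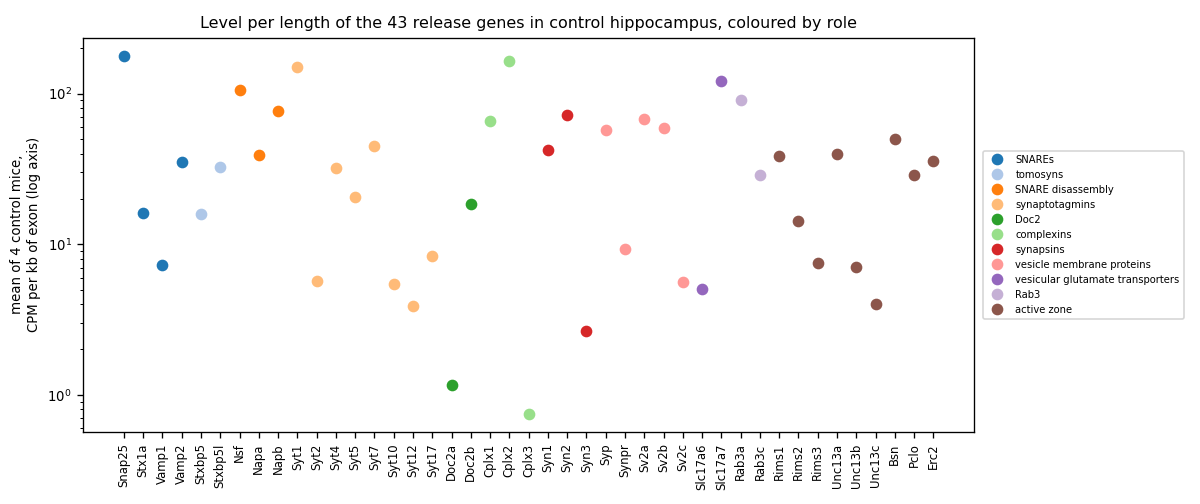
Mean level of each of the 43 genes in the 4 control mice, in CPM per kb of exon on a log axis, coloured by role. Snap25 is highest at 179 and Cplx3 lowest at 0.748 CPM per kb.

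Across the time course the calls gathered on day 13. On day 4, 1 of the 43 genes was called (2.33%, beside 0.680% of all 25308 genes tested), and on day 6 again 1 (2.33%, beside 1.32%), Syn1 both times. On day 8, 2 genes were called (4.65%, beside 3.99%), of which Sv2c was higher (2.33%, beside 2.15% of all genes) and Doc2b lower (2.33%, beside 1.84%). On day 13, 10 genes were called (23.3%, beside 16.5%): Syt4, Syt5, Syt12, Cplx1, Syn3, Sv2c, Slc17a7 and Unc13b were higher, 8 genes or 18.6% beside 8.40% of all genes, and Syt17 and Doc2b were lower, 4.65% beside 8.06%. All 4 comparisons used the same 4 controls. For day 4, 6, 8 and 13 the 43 genes had median log2 fold changes of 0.07, 0.05, 0.15 and 0.11, beside -0.01, -0.02, -0.03 and -0.04 over all genes. The median size of the change on day 13 was 0.30, near the 0.32 of all genes. Without control D, Syn1 was no longer called on day 4 (log2 fold change 0.50), and 83 of all genes were called in place of 172. On day 8 the count was 1 without control D, day 8 A or day 8 C (669, 586 and 804 of all genes) and 4 without day 8 D (1491), in place of 2 (1001). On day 13 it was 6 without control B (3022 of all genes) or without day 13 B (2928), in place of 10 (4101).

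With rapamycin the levels lay near those of controls, with a median size of change of 0.08, beside 0.13 over all genes. In edgeR 0 of the 43 genes were called against controls, beside 1.41% of all genes, and DESeq2 also called 0 (450 of all genes). At an unadjusted p under 0.05 were 10 of the 43, beside 4525 of all 25006 genes. The median log2 fold change against controls was -0.06, beside 0.01 over all genes. Napb (-0.18), Syt5 (-0.18), Syn2 (-0.24), Synpr (-0.20) and Unc13a (-0.20) were lower in every rapamycin mouse than in every control. None of them passed the test, and the share of all genes that part in this way was not counted. Against the untreated mice of day 13, 13 genes were called (30.2%, beside 21.1% of all genes). Of these, 11 were lower with rapamycin (25.6%, beside 11.2%): Napb, Syt4, Syt5, Syt12, Cplx1, Syn2, Sv2b, Sv2c, Slc17a7, Rab3c and Unc13b. The other two, Syt17 and Doc2b, were higher (4.65%, beside 9.94%). The median log2 fold change of the 43 genes in this comparison was -0.19, beside 0.02 over all genes, and the median size was 0.42, beside 0.34. This comparison and that of day 13 with controls share the 4 mice of day 13. Day 13 was also compared with day 8, and edgeR called 0 of the 43 genes and 0% of all 24747 genes. At an unadjusted p under 0.05 were 9 of the 43, beside 3479 of all genes. DESeq2 called 0 of the 43 in this comparison, beside 238 of all genes. In the fit of all 24 mice, which called 1343 of all genes between these days, 3 of the 43 were called: Syt12 at a log2 fold change of 0.55, Unc13b at 0.53 and Syt17 at -0.61. An F test over the 6 groups found a difference for 27 of the 43 genes (62.8%, beside 41.9% of all 27110 genes). Fewer cells of a type and less RNA per cell cannot be told apart in these tissue samples.

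**Figure D2:**
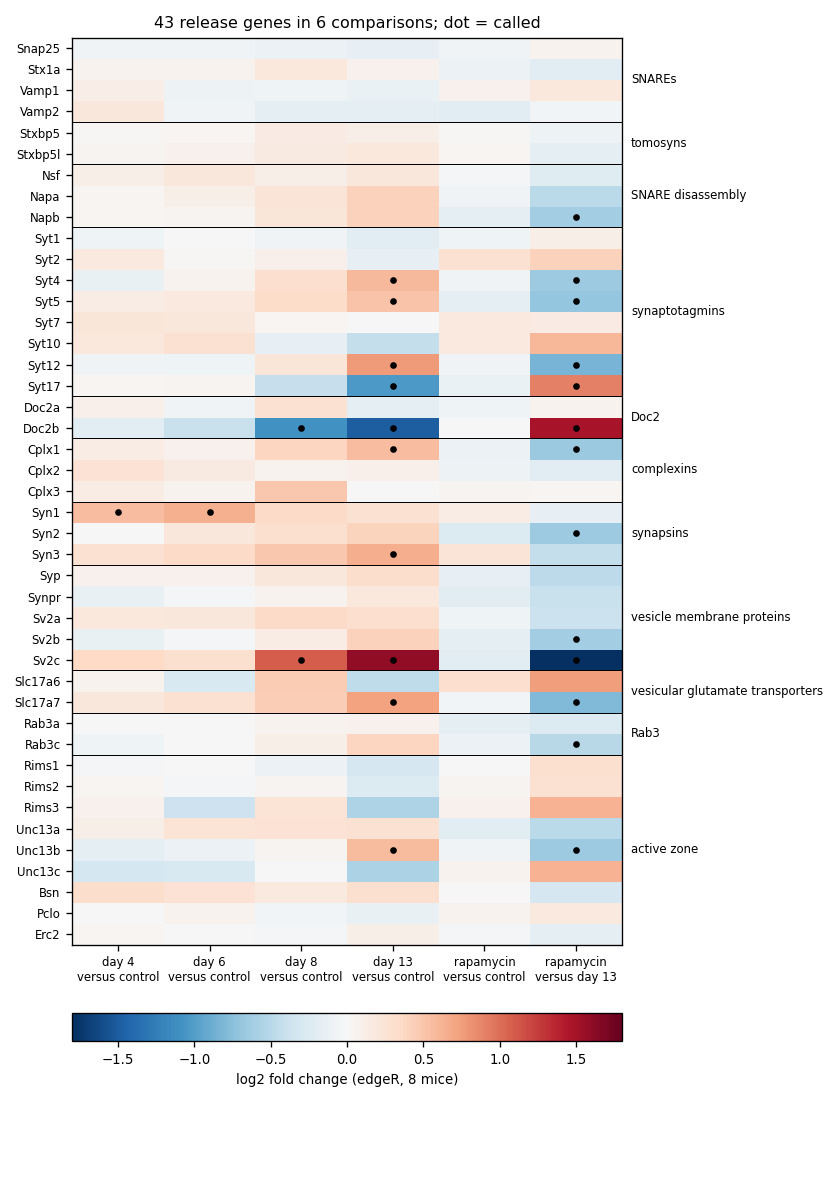
Log2 fold change (edgeR, 8 mice per comparison) of the 43 genes, grouped by role, in 6 comparisons; a dot marks a called gene. The dots gather in the comparisons that hold day 13, with 10 on day 13 versus control and 13 for rapamycin versus day 13.

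The core SNAREs form the fusion complex itself. Among Snap25, Stx1a, Vamp1 and Vamp2, edgeR called 0 on day 13 (0%, beside 16.5% of all genes), with 0 at an unadjusted p under 0.05 and 0 called in DESeq2, and the median log2 fold change was -0.13, beside -0.04 over all genes. Vamp1 passed the F test over the 6 groups (adjusted p = 0.0283), and the other three did not. With 4 genes such counts are too small to set these SNAREs apart from all genes. Vamp2, the main vesicle SNARE and the member of this group with the largest day 13 fold change, was at 150, 131, 122 and 129 CPM in controls, 159, 151, 153 and 153 on day 4 and 114, 126, 134 and 142 on day 6. It was then at 123, 154, 91.6 and 111 CPM on day 8, 117, 90.2, 125 and 144 on day 13 and 105, 111, 97.8 and 145 under rapamycin. The mice of day 4 lay just above all controls, and those of day 8, day 13 and rapamycin were spread widely around and below the controls. The log2 fold change was 0.21 on day 4 (adjusted p = 0.0482, SE 0.0544, too small to be called) and -0.18 on day 13 (adjusted p = 0.356). Snap25 ranged from 940 to 1302 CPM over the 24 mice, with a log2 fold change of -0.15 on day 13.

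The tomosyns Stxbp5 and Stxbp5l bind syntaxin and SNAP25 and hold back the pairing of SNAREs. Stxbp5l was at 294, 272, 267 and 275 CPM in controls, 276, 299, 285 and 288 on day 4 and 309, 281, 311 and 280 on day 6. On day 8 it was at 317, 313, 331 and 294, on day 13 at 301, 312, 367 and 303 and under rapamycin at 296, 290, 272 and 285 CPM. All 4 mice of day 13 lay above all controls, by a small margin in 3 of them, and the rapamycin mice overlapped with controls. The difference on day 13, 0.19 on the log2 scale, did not pass the test (adjusted p = 0.103). On day 13, edgeR called 0 of both tomosyns (0%, beside 16.5% of all genes), with 1 at an unadjusted p under 0.05 and 0 called in DESeq2, too few genes to be read against that share.

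After fusion, the ATPase Nsf and its adaptors Napa and Napb (alpha- and beta-SNAP) take the SNARE complex apart. On day 13 the log2 fold changes were 0.20 for Nsf, 0.41 for Napa and 0.42 for Napb, all under the minimum for a call (0% called in edgeR, beside 16.5% of all genes, 0 called in DESeq2 and 3 at an unadjusted p under 0.05). Napb was at 580, 513, 513 and 540 CPM in controls, 525, 557, 540 and 561 on day 4 and 601, 536, 576 and 527 on day 6. Its level was 660, 633, 648 and 592 CPM on day 8, 625, 709, 762 and 817 on day 13 and 482, 487, 489 and 429 under rapamycin. Every mouse of day 8 and day 13 was above every control, and every rapamycin mouse was below every control. Between rapamycin and day 13, Napb fell by 0.62 on the log2 scale (SE 0.0954, adjusted p = 0.00173). Napa, at a log2 fold change of -0.49, was just short of the minimum in edgeR and was called in DESeq2.

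The synaptotagmins are vesicle and membrane proteins with C2 domains, of which Syt1 and Syt2 trigger fast release and Syt7 responds to lower calcium. On day 13, 4 of the 8 were called (50%, beside 16.5% of all genes). Syt4, which binds calcium poorly, was at 128, 122, 127 and 122 CPM in controls, 109, 113, 112 and 116 on day 4 and 141, 125, 132 and 126 on day 6. It was at 157, 152, 160 and 151 CPM on day 8, 189, 257, 161 and 148 on day 13 and 126, 117, 120 and 116 under rapamycin. The 4 mice of day 8 were already above all controls, and on day 13 mouse B stood far above the rest while mice C and D were at the level of day 8. Syt4 rose by a log2 fold change of 0.58 on day 13 (SE 0.141, adjusted p = 0.0161) and was lower with rapamycin than on day 13 (-0.65, adjusted p = 0.0082). Without day 13 B these values were 0.41 and -0.48 and neither was called, and with the level of Xist, the X-inactivation transcript of female mice, as a covariate the day 13 value was 0.46.

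Syt5 was at 49.4, 47.9, 51.8 and 48.3 CPM in controls, 49.7, 55.4, 53.5 and 56.7 on day 4 and 53.1, 60.8, 54.8 and 56.6 on day 6. Day 8 mice were at 68.4, 65.8, 60.8 and 54.9, day 13 mice at 73.1, 84.8, 63.4 and 64.6 and rapamycin mice at 45.9, 43.6, 46.3 and 38.4 CPM. From day 6 on each untreated Tsc1-Cre+ mouse was above all controls, and each rapamycin mouse was below them. The log2 fold change was 0.51 on day 13 (adjusted p = 0.00363), close to the minimum, and it fell to 0.50 without control B, 0.43 without day 13 B, 0.45 with the Xist covariate and 0.47 with a correction for GC content, none of them called. Against day 13, rapamycin mice were lower by a log2 fold change of -0.70 (SE 0.102, adjusted p = 0.00135).

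Syt12 was at 23, 20.7, 19.4 and 22.4 CPM in controls, 19.4, 20.1, 20.2 and 21.5 on day 4 and 20.7, 21, 21.5 and 18.2 on day 6. In the later groups it was at 26.5, 25.9, 27 and 21.4 CPM on day 8, 49, 44.1, 27.8 and 26 on day 13 and 21.5, 21.6, 20.3 and 18.7 under rapamycin. Mice A and B of day 13 were far above all others, whereas C and D overlapped with day 8 and lay just above the controls. The rise on day 13 was 0.76 (SE 0.191, adjusted p = 0.0178), with adjusted p = 0.0524 without control B and 0.0588 without control C, and rapamycin mice were lower than day 13 (-0.83, adjusted p = 0.00981).

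Syt17 moved the other way, at 51.2, 43.3, 38.5 and 41.3 CPM in controls, 47.3, 45.4, 39.9 and 45.7 on day 4 and 48.4, 43.1, 41.7 and 48.1 on day 6. It was at 35.7, 34.1, 25 and 36.6 CPM on day 8, 12.4, 15.1, 29.1 and 30 on day 13 and 45, 43.2, 37 and 34.8 under rapamycin. All mice of day 8 and day 13 were below all controls, with day 13 A and B the lowest, and the rapamycin mice overlapped with the controls. Syt17 fell by 1.03 on the log2 scale on day 13 (SE 0.275, adjusted p = 0.0223) and was higher with rapamycin than on day 13 (0.90, adjusted p = 0.0308). Leaving out control A, B or D or day 13 B ended the first call, with adjusted p = 0.0638, 0.0513, 0.0517 and 0.0511. Leaving out day 13 B or rapamycin A, B, C or D ended the second, with adjusted p = 0.066, 0.08, 0.0748, 0.0536 and 0.0554. Of the other synaptotagmins, Syt1 had a day 13 log2 fold change of -0.20, Syt2 -0.15, Syt7 0.01 and Syt10 -0.43, and none of these passed the test. Syt4 and Syt12 share 14.5% and 17.2% of their exonic bases with a gene on the opposite strand, and as the strand setting of the counting is not stated, part of their counts is uncertain.

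**Figure D3:**
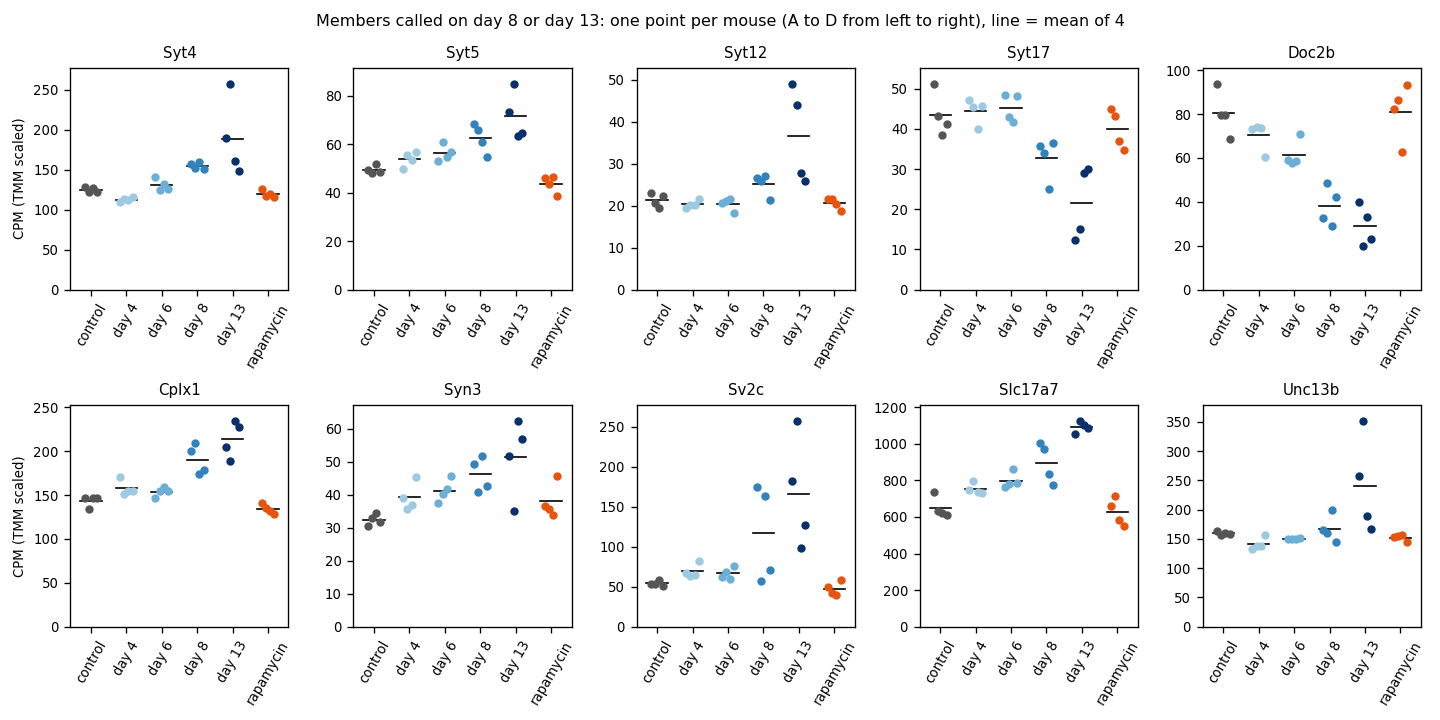
CPM of the 10 genes called on day 8 or day 13, 1 point per mouse (A to D from left to right in each group), with a line at the mean of 4 mice. Doc2b and Syt17 are lowest on day 13, the other 8 have their highest mean there, and the rapamycin means are nearer to those of the controls than to those of day 13.

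Doc2 proteins are soluble C2-domain sensors with a high calcium affinity that act in spontaneous and asynchronous release. Doc2b (chr11:75768966-75796049, build GRCm38) was at 93.7, 79.6, 79.8 and 68.6 CPM in controls, 73.2, 74, 73.8 and 60.5 on day 4 and 59, 57.5, 58.6 and 70.7 on day 6. On day 8 the mice were at 32.5, 48.6, 29.2 and 42 CPM, on day 13 at 40.1, 20, 33 and 23 and under rapamycin at 82.1, 86.3, 62.5 and 93.2. The 8 mice of day 8 and day 13 were all below all controls, 3 of the mice of day 6 were as well, and the rapamycin mice overlapped with the controls. Doc2b fell by 1.09 on the log2 scale on day 8 (SE 0.151, adjusted p = 0.00145) and by 1.49 on day 13 (SE 0.209, adjusted p = 0.00153), and was higher with rapamycin than on day 13 by 1.49 (SE 0.217, adjusted p = 0.00133). All 3 calls held in every fit that was tried and without each mouse in turn. On day 8, where controls and Tsc1-Cre+ mice share their animal series, mice A and B were below control A and B, and C and D below control C and D. The value on day 6 was -0.40 (adjusted p = 0.00845), under the minimum for a call, and the difference between day 13 and day 8, -0.40, did not pass the test (adjusted p = 0.447). Gm12339 on the opposite strand covers 5.53% of the exonic bases of Doc2b. Doc2a was between 1.45 and 5.15 CPM in all mice, and as Ino80e covers 39.4% of its exonic bases on the opposite strand its counts are uncertain.

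Complexins bind the assembled SNARE complex and both hold it back and ready it for calcium. Cplx1 (chr5:108518554-108550024) was at 147, 134, 147 and 147 CPM in controls, 171, 151, 155 and 154 on day 4 and 147, 155, 159 and 154 on day 6. It stood at 200, 209, 174 and 178 CPM on day 8, 205, 189, 234 and 227 on day 13 and 141, 135, 132 and 128 under rapamycin. All mice of day 8 and day 13 were above every control and every mouse of day 4 and day 6, and the rapamycin mice lay within or below the control range. The log2 fold change was 0.39 on day 8 (adjusted p = 0.00406, under the minimum) and 0.55 on day 13 (SE 0.0845, adjusted p = 0.00219), and rapamycin mice were lower than day 13 by -0.67 (SE 0.0868, adjusted p = 0.000842). Both calls held in every fit that was tried and without each mouse in turn. Cplx2, the more abundant complexin per length, had a log2 fold change of 0.09 on day 13 and ranged from 650 to 1041 CPM, and Cplx3 was at most 4.37 CPM in any mouse.

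Synapsins coat vesicles and tie them into a reserve cluster. Syn1, on chromosome X, is named here after its values were seen, as the sole gene called on the early days. It was at 144, 134, 154 and 121 CPM in controls, 183, 211, 203 and 217 on day 4 and 207, 215, 232 and 212 on day 6. Later it was at 210, 224, 117 and 155 CPM on day 8, 175, 127, 165 and 210 on day 13 and 148, 176, 134 and 147 under rapamycin. All mice of day 4 and day 6 were above all controls, and from day 8 on the groups overlapped with controls because mice such as day 8 C and day 13 B were as low as they. The log2 fold change was 0.56 on day 4 (SE 0.0698, adjusted p = 0.00155) and 0.64 on day 6 (SE 0.062, adjusted p = 4.43e-05), against 0.34 on day 8 (adjusted p = 0.21) and 0.28 on day 13 (adjusted p = 0.185). Whether the early and late values differ was not tested. The day 4 call was lost without control D (0.50), with a correction for GC content (0.48) and in the fit of all 24 mice (adjusted p = 0.156), and the day 6 call held in every fit and without each mouse.

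Syn3, the least abundant synapsin per length, was at 30.6, 33, 34.6 and 31.7 CPM in controls, 38.9, 35.8, 36.8 and 45.3 on day 4 and 37.4, 40.2, 41.7 and 45.8 on day 6. Its levels were 49.4, 41, 51.8 and 42.7 CPM on day 8, 51.8, 35, 62.3 and 56.8 on day 13 and 36.7, 35.8, 34 and 45.6 under rapamycin. Each untreated Tsc1-Cre+ mouse lay above all controls, day 13 B only barely so, and so did 3 of the 4 rapamycin mice. On day 13 Syn3 rose by 0.65 (SE 0.161, adjusted p = 0.0171), with adjusted p = 0.0505 without control A and 0.0519 without control D. Between rapamycin and day 13 it was not called (-0.43, adjusted p = 0.0837). Timp3 on the opposite strand covers 14.1% of its exonic bases, so that its counts are uncertain. Syn2 was lower with rapamycin than on day 13 (-0.65, SE 0.0941, adjusted p = 0.0013), from 643 to 731 CPM on day 13 to 362 to 471 CPM with rapamycin, with no overlap.

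Proteins of the vesicle membrane include synaptophysin (Syp), synaptoporin (Synpr) and the SV2 glycoproteins, which set how ready vesicles are for release. Sv2c (chr13:95954594-96132577), the least abundant SV2 gene per length, was at 53.8, 53, 58.9 and 51 CPM in controls, 67.6, 64, 64.4 and 82.8 on day 4 and 62.7, 68.6, 60 and 75.9 on day 6. It was at 175, 57.6, 164 and 71.2 CPM on day 8, 182, 257, 98.9 and 127 on day 13 and 50.2, 42, 40 and 58.1 under rapamycin. On day 8, mice A and C were high and B and D were at or near the control range; on day 13 all mice were above all controls, with B the highest; and rapamycin mice overlapped with controls. The log2 fold change was 1.09 on day 8 (SE 0.302, adjusted p = 0.0366), 1.59 on day 13 (SE 0.242, adjusted p = 0.00217) and -1.79 between rapamycin and day 13 (SE 0.256, adjusted p = 0.00125). The day 13 and rapamycin calls held in every fit and without each mouse. The day 8 call did not: adjusted p was 0.0866, 0.0891, 0.0787 and 0.0981 without control A, B, C or D, 0.111 without day 8 A, 0.0738 without day 8 C and 0.0514 with the animal series as a block. On day 4 and day 6 all mice were above all controls, at 0.36 and 0.29 on the log2 scale (adjusted p = 0.0219 and 0.0145), under the minimum for a call.

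Sv2b was called between rapamycin and day 13 (-0.62, SE 0.13, adjusted p = 0.00692), at 683, 797, 671 and 552 CPM on day 13 and 468, 464, 478 and 339 with rapamycin. The day 13 mice were all above the rapamycin mice, and day 13 D was the nearest to them. Sv2a was higher than in every control in all 16 untreated Tsc1-Cre+ mice, with log2 fold changes of 0.19, 0.21, 0.34 and 0.30 on day 4, 6, 8 and 13, none over the minimum for a call. Syp had a day 13 log2 fold change of 0.31 (adjusted p = 0.0242) and Synpr of 0.19 (adjusted p = 0.582). Gm14703 on the opposite strand covers 16.8% of the exonic bases of Syp, so that its counts are uncertain.

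The vesicular glutamate transporters fill vesicles with glutamate, with Slc17a7 (VGLUT1) in most hippocampal and cortical excitatory neurons and Slc17a6 (VGLUT2) mainly in thalamus and other subcortical regions. Slc17a7 (chr7:45163949-45176142) was at 739, 631, 623 and 612 CPM in controls, 749, 795, 737 and 731 on day 4 and 766, 782, 862 and 785 on day 6. It was at 1004, 969, 833 and 774 CPM on day 8, 1055, 1123, 1104 and 1086 on day 13 and 661, 714, 581 and 552 under rapamycin. The mice of day 6, day 8 and day 13 were all above all controls, the 4 mice of day 13 lay close together above every other mouse, and the rapamycin mice overlapped with controls. Slc17a7 rose by 0.73 on the log2 scale on day 13 (SE 0.0751, adjusted p = 0.000508) and was lower with rapamycin than on day 13 by -0.79 (SE 0.0903, adjusted p = 0.000516), and both calls held in every fit and without each mouse. The values on the earlier days, 0.21, 0.28 and 0.44 on day 4, 6 and 8, were under the minimum for a call.

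Slc17a6, named after its values were seen, was at 14.7, 20.8, 34.5 and 39.5 CPM in controls, 36.1, 26, 31.2 and 21.4 on day 4 and 20, 25.4, 18.3 and 27 on day 6. It was at 24.5, 35.6, 63.5 and 28.8 CPM on day 8, 25.9, 7.23, 23.4 and 23.9 on day 13 and 33.3, 20.3, 36.4 and 44.9 under rapamycin. All groups overlapped, day 8 C was the highest of all mice and day 13 B the lowest. It was called in no comparison (0 in edgeR and in DESeq2, with an unadjusted p of 0.0458 between day 13 and day 8). The summed level of 5 thalamus markers (Tcf7l2, Lef1, Prkcd, Tnnt1 and Plekhg1, all found and none at 0) was 97.9, 101, 102 and 227 CPM in controls and 67.5, 73.5, 220 and 82.3 CPM on day 8. Control D and day 8 C, the mice with the highest Slc17a6 of their groups, thus had the highest thalamus sums of control and day 8 mice, and Plekhg1, the most abundant marker of the list, was 111 and 99.5 CPM in them against 49.7 to 62 CPM in the other controls and day 8 mice. Rapamycin D, highest of its group for Slc17a6, also had the highest thalamus sum of that group at 137 CPM, with Plekhg1 at 82.1 CPM. On day 13 this did not hold: mouse A had the highest Slc17a6 with a sum of 60.6 CPM, and mouse D the highest sum at 95.2 CPM. Over the mice of the other groups the sum was between 50.1 and 137 CPM. The part of thalamic tissue in the level of Slc17a6 was not tested.

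Rab3 GTPases on the vesicle bind RIM at the release site. Rab3c was at 385, 336, 323 and 347 CPM in controls, 322, 336, 290 and 369 on day 4 and 377, 337, 341 and 342 on day 6. In the other groups it was at 365, 380, 415 and 357 CPM on day 8, 421, 541, 460 and 434 on day 13 and 328, 328, 342 and 303 under rapamycin. All mice of day 13 were above all mice of every other group, and the rapamycin mice overlapped with controls. Its log2 fold change of 0.39 on day 13 (adjusted p = 0.011) was under the minimum, and rapamycin mice were lower than day 13 by -0.50 (SE 0.0843, adjusted p = 0.00243). That value sits at the minimum for a call, and it was -0.43 without day 13 B, -0.47 without rapamycin D and -0.50 with the replicate letter as a block, none of them called. Rab3a, the more abundant of both per length, had a log2 fold change of 0.08 on day 13 and ranged from 163 to 235 CPM.

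At the active zone, RIM proteins (Rims1, Rims2, Rims3) recruit calcium channels, Munc13 proteins (Unc13a, Unc13b, Unc13c) prime vesicles, and Bassoon (Bsn), Piccolo (Pclo) and Erc2 build the scaffold. Of these 9 genes 1, Unc13b, was called on day 13 (11.1%, beside 16.5% of all genes). It was at 163, 157, 160 and 159 CPM in controls, 132, 138, 138 and 156 on day 4 and 150, 150, 150 and 151 on day 6. It was at 166, 160, 199 and 145 CPM on day 8, 257, 351, 189 and 167 on day 13 and 153, 155, 157 and 144 under rapamycin. Day 13 A and B were far above all other mice, and C and D were just above the controls and within the range of day 8. The log2 fold change of 0.57 (SE 0.189) passed narrowly, with adjusted p = 0.0495. It was not called without control A, B, C or D or day 13 A, at adjusted p between 0.0979 and 0.11, nor without day 13 B, where the log2 fold change was 0.35 (adjusted p = 0.0791), nor with the Xist covariate (0.38) or the replicate letter as a block (0.51). The lower level with rapamycin than on day 13 (-0.65, adjusted p = 0.0255) was -0.43 and not called without day 13 B, and adjusted p was 0.0572 without day 13 A and 0.0603, 0.0594, 0.0585 and 0.0733 without rapamycin A, B, C or D.

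The main Munc13 gene per length, Unc13a, had log2 fold changes of 0.25, 0.26 and 0.28 on day 6, 8 and 13, all with an adjusted p under 0.05 and under the minimum for a call. Bsn was higher than in all controls in every mouse of day 4 and day 6, at 0.31 and 0.26 on the log2 scale, again under the minimum. Rims1 was lower in all mice of day 13 than in all controls, at -0.30 (adjusted p = 0.0166). Rims3 at -0.56 and Unc13c at -0.57 had larger values on day 13 but widely spread mice: Rims3 was 66.2, 19.5, 47.1 and 31.3 CPM on day 13 against 49.3, 36.6, 78.7 and 74.3 in controls. Neither passed the test, with adjusted p = 0.274 and 0.28, and both groups overlapped.

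The 4 mice of day 13 parted into A and B against C and D in several of these genes. Syt4, Syt12, Sv2c and Unc13b were higher in A and B, and Syt17 was lower. The same mice differed in other measured ways. A and B came from 1 series of animal numbers and C and D from others, A and B had the largest libraries of the group (69971957 and 126435936 counts, against 38423852 and 41101425), and Xist was at 2 and 1.53 CPM in A and B and at 810 and 816 CPM in C and D. Within this group these differences cannot be told apart. In the fit with an Xist covariate, the day 13 log2 fold changes were 0.56 for Syt12, 1.34 for Sv2c and -0.99 for Syt17, all called, and 0.46 for Syt4 and 0.38 for Unc13b, which were not. The paper proposes that the wide variation among its day 13 mice may reflect differing seizure load. The labels do not give the seizures of each mouse. The part of depth, of the animal series and of seizures in the split was not tested.

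Markers of cell types moved with these results too. The neuron list (Rbfox3, Tubb3, Map2, Nefl, Nefm, Eno2 and Stmn2, 7 of 7 found) summed to 3496, 3083, 3192 and 3249 CPM in controls, 3758, 3688, 3865 and 3606 on day 8, 4252, 4232, 4196 and 3855 on day 13 and 3040, 3021, 2973 and 2828 with rapamycin. It was 3091 to 3233 CPM on day 4 and 3287 to 3411 on day 6. All mice of day 8 and day 13 were above all controls and all rapamycin mice below. Of the release genes, Napb, Syt5 and Unc13a had this pattern, and its share over all genes was not counted. Syt4, Syt12, Cplx1, Sv2c and Slc17a7 overlapped with controls under rapamycin. Map2 was its most abundant gene, and Tubb3 (1.00), Nefm (0.88) and Nefl (0.67) were called higher on day 13 and lower with rapamycin than on day 13. The dentate granule list (Prox1, Dsp, C1ql2, Calb1 and Lct, 5 of 5 found, Prox1 the most abundant) summed to 450, 486, 443 and 477 CPM in controls and 245, 222, 396 and 425 on day 13, with 332 to 481 on day 8, 414 to 591 on day 4, 478 to 527 on day 6 and 415 to 563 with rapamycin. Day 13 A and B, the mice with the lowest Syt17, were thus the lowest for the sum of this list. All 5 genes had log2 fold changes below 0 on day 13, and 1 was called, Calb1 at -1.19 (adjusted p = 0.00557). Calb1 was at 24, 25.7, 49 and 45.1 CPM on day 13. Prox1 did not part A and B from C and D, at 131, 108, 119 and 111 CPM on day 13 against 124 to 141 in controls. The interneuron list (Gad1, the most abundant, Gad2, Pvalb, Sst, Vip, Lhx6 and Npy, 7 of 7 found) summed to 550, 551, 417 and 366 CPM on day 13, 363 to 394 in controls and 328 to 445 in the other groups. Its genes went both ways on day 13, 4 above 0 and 3 below with a median log2 fold change of 0.03.

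Npy, a neuropeptide gene, was the sole called gene of that list (2.38 on day 13, SE 0.427, adjusted p = 0.00433), and its rise was not shared by the list. It was at 9.69 to 12.1 CPM in controls. It was at 32.9, 9.47, 62.7 and 7.3 CPM on day 8 and 81.7, 101, 26 and 25.3 on day 13. The mice with high Npy, A and C on day 8 and A and B on day 13, were also the mice with the highest Sv2c of their groups. The part of neuron, granule cell and interneuron RNA in the levels of the release genes was not tested, nor was that of seizures.

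**Figure D4:**
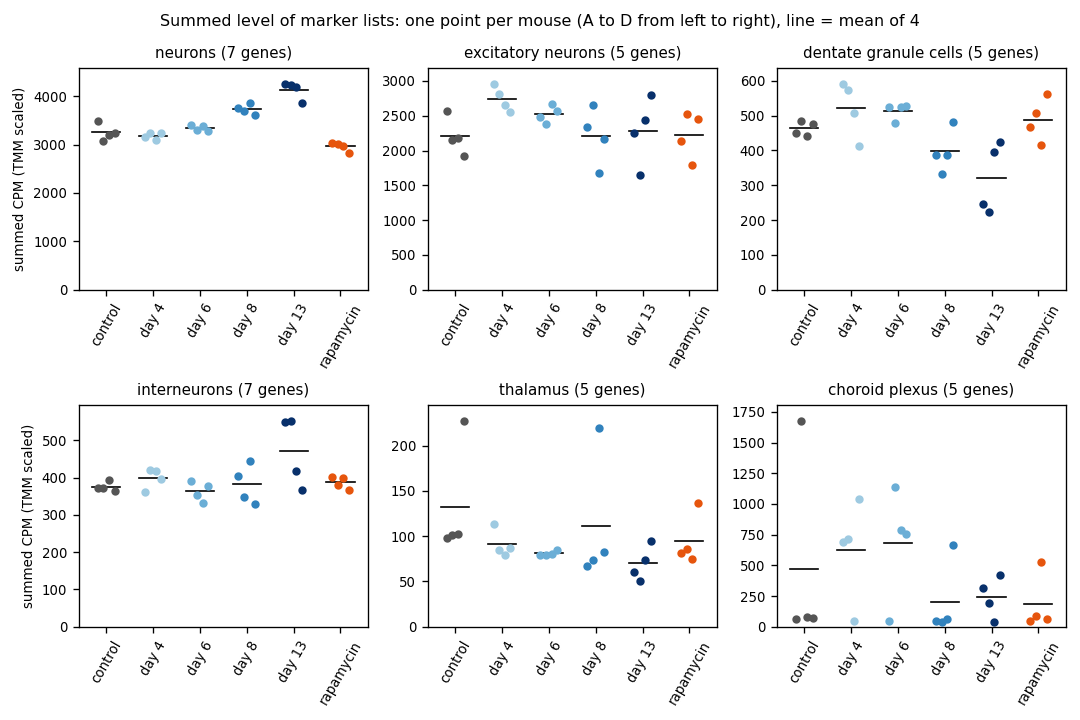
Summed CPM of 6 marker lists, 1 point per mouse (A to D from left to right in each group), with a line at the mean of 4 mice. The neuron sum is highest on day 13 and the dentate granule sum lowest there in mice A and B, while thalamus and choroid plexus sums are set by single mice.

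Each sum of the 15 lists was put to an exact permutation test, two-sided. With 4 mice in each group, 0.0286 is the smallest exact p that such a test allows, and over 105 tests it became 0.158 after adjustment. A single list could therefore not pass whatever its values, and the adjusted p says nothing on whether the sums differ. On day 13 the smallest exact p was reached by the neuron list (mean 4134 against 3255 CPM in controls), the dentate granule list (322 against 464) and the thalamus list (70.1 against 132). Of the other lists, day 13 sums were 2285 against 2205 CPM for excitatory neurons, 386 against 419 for CA1 and 253 against 228 for CA3 pyramidal cells, and 11.4 against 12.2 for mossy cells. Neurod2 of the excitatory list was called higher on day 8 (0.66) and day 13 (0.89) and lower with rapamycin than on day 13 (-0.62). That list had 2 genes above 0 and 3 below on day 13, with a median log2 fold change of -0.01. Interneurons summed to 471 against 375 CPM, astrocytes to 1138 against 1309 and oligodendrocytes to 3238 against 3665. Oligodendrocyte precursors were at 126 against 139 CPM, microglia at 283 against 267, endothelial cells at 148 against 130, neocortex at 114 against 131 and choroid plexus at 244 against 470. The choroid plexus list is carried by Ttr, which ran from 5.69 to 1501 CPM over single mice.

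Lists of other cell types moved between rapamycin and day 13 as well. The smallest exact p was reached there by the neuron list (mean 2966 CPM with rapamycin against 4134), the microglia list (195 against 283) and the endothelial list (109 against 148). The microglia list (6 of 6 found, none at 0, Csf1r the most abundant) summed to 290, 268, 243 and 266 CPM in controls and 240, 341, 289 and 262 on day 13. With rapamycin it was at 199, 207, 182 and 192 CPM, and in the other groups at 212 to 260. All rapamycin mice were below all controls and all mice of day 13 for this list. The endothelial list (Cldn5, Pecam1, Flt1, the most abundant, and Ly6c1, 4 of 4 found, none at 0) summed to 143, 124, 132 and 121 CPM in controls, 168, 164, 142 and 119 on day 13, 111, 110, 105 and 110 with rapamycin and 109 to 140 in the other groups. Every rapamycin mouse was below every control and every mouse of day 13. C1qa, a gene of microglia, was called on day 13 (0.72) and between rapamycin and day 13 (-1.13), where Cldn5 (-1.06) and Pecam1 (-0.63) were also called. Against controls C1qa was the 1 called gene of the microglia list on day 13. That list had 3 genes above 0 and 3 below there, with a median log2 fold change of -0.02. Of the astrocyte list, whose most abundant gene was Slc1a3, Gja1 was called on day 13 (-0.93) and between rapamycin and day 13 (0.89), whereas Aqp4 (-0.73) and Aldh1l1 (-0.59) were lower with rapamycin than on day 13.

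Against controls the rapamycin mice were lower, at the smallest exact p, for neurons (2966 against 3255 CPM), astrocytes (1184 against 1309), microglia (195 against 267), oligodendrocyte precursors (127 against 139) and endothelial cells (109 against 130). That p was also reached by oligodendrocyte precursors on day 4, and by astrocytes, microglia (229 against 267 CPM), oligodendrocyte precursors and thalamus on day 6. On day 8 astrocytes and oligodendrocyte precursors reached it. All of these were lower than in controls, whereas neurons, which also reached it on day 8, were higher. The part of glial and endothelial RNA in the levels of the release genes was not tested.

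Release genes outside the 43 were read from 4 further lists. Of 38 other SNAREs, regulators and sensors tested (40 listed), 2 were called on day 8, both higher (5.26%, beside 2.15% of all genes), and on day 13 4 rose (10.5%, beside 8.40%) and 3 fell (7.89%, beside 8.06%), shares near those of all genes on day 13. Syt13, an atypical synaptotagmin, was at a log2 fold change of 0.69 and the syntaxin Stx3 at 0.65, whereas Rab3d was at -0.90 and the Rab3 effector Rph3a at -0.83. Between rapamycin and day 13, 4 were higher (10.5%, beside 9.94% of all genes) and 5 lower (13.2%, beside 11.2%), again near the shares of all genes. Of 17 other active zone genes, Rimbp2 (0.53), which links RIM to calcium channels, rose and the liprin Ppfia2 (-0.50) fell on day 13, 5.88% each way beside 8.40% and 8.06% of all genes. Between rapamycin and day 13 the share was again 5.88% each way, beside 9.94% of all genes higher and 11.2% lower. Of 12 other vesicle membrane and transporter genes tested (14 listed), 3 rose (25%, beside 8.40% of all genes) and 1 fell (8.33%, beside 8.06%) on day 13: Slc6a17, a vesicular amino acid transporter, at 0.96, Svop at 0.62 and Scamp5 at 0.56, and Slc17a8 (VGLUT3) at -0.64. Between rapamycin and day 13, 3 of the 11 tested were lower (27.3%, beside 11.2% of all genes) and 1 higher (9.09%, beside 9.94%). Of 25 genes of vesicle recycling by endocytosis, 8 were called on day 13, each of them higher (32%, beside 8.40% of all genes called higher), with the clathrin light chain Cltb at 0.95 and the adaptor subunit Ap2a2 at 0.83. With rapamycin 9 of the 25 were lower than on day 13 (36%, beside 11.2% of all genes) and 2 higher (8%, beside 9.94%). The median day 13 log2 fold change was 0.14, 0.10, 0.17 and 0.10 for these 4 lists, beside -0.04 over all genes.

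Promoter windows, the 250 bases before and 50 after the start in the RefSeq table of build GRCm38.p6, were given for 32 of the 43 genes (41 windows), and were searched on both strands as 300 bases each. The cAMP response element TGACGTCA was found for 2 of the 32 genes (6.25%, beside 2.03% of all 27025 genes and 1.79% of all 32851 windows), Syn1 and Napa. Its core TGACG, which lies within TGACGTCA, was found for 9 genes (28.1%, beside 23.0% of genes and 20.8% of windows). NTCAGCACC, the left part of the RE1 element bound by the repressor REST, was found for 3 genes (9.38%, beside 1.85% and 1.65%), Syn1, Napa and Unc13a. The right part, GGACAGNGC, was found for 2 (6.25%, beside 2.18% and 1.91%), Sv2b and Unc13a. A match is a description of letters, not of binding.

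The windows of the gene called on the early days, of the other gene with both the cAMP element and the left RE1 part, and of 3 of the genes whose day 13 calls held in every fit are printed 5′ to 3′ on the strand of the gene, with motif matches in capitals. Syn1 is chrX:20920869-20921168 (minus strand), Napa chr7:16098330-16098629 (plus), Cplx1 chr5:108549978-108550277 (minus), Slc17a7 chr7:45163671-45163970 (plus) and Sv2c chr13:96132528-96132827 (minus), all in GRCm38.p6 from RefSeq.
Syn1: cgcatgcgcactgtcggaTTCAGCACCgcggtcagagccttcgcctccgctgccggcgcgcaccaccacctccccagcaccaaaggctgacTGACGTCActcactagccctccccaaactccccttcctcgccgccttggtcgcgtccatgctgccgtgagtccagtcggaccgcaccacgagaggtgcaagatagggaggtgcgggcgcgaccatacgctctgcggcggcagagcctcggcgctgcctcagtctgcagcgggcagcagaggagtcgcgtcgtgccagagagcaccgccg
Napa: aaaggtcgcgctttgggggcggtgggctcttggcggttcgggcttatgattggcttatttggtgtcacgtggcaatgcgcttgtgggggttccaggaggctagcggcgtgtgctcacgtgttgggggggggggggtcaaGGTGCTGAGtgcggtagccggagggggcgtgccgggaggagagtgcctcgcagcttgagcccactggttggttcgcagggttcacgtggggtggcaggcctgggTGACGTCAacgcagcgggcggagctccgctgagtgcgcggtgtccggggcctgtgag
Cplx1: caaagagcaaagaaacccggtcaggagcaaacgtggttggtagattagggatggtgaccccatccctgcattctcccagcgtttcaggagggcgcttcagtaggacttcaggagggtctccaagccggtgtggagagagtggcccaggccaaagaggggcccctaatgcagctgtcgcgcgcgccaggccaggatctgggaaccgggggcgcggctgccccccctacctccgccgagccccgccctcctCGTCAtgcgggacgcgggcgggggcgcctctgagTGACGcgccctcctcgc
Slc17a7: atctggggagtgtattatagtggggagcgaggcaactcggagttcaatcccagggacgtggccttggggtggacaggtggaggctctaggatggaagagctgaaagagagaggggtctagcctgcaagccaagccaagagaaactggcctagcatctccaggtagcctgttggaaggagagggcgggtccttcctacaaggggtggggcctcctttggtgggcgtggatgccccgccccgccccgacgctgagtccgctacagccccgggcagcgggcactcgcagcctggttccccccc
Sv2c: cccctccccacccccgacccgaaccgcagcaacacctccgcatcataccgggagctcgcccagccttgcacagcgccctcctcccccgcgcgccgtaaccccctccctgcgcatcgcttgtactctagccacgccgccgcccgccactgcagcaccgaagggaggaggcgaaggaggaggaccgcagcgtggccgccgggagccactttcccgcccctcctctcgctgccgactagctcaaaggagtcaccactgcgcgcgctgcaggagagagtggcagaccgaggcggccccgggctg
Syn1 and Napa hold both TGACGTCA and the left RE1 part. Syn1 was called on day 4 and day 6 and Napa in no edgeR comparison. Cplx1 has 2 matches of TGACG on opposite strands, and the windows of Slc17a7 and Sv2c hold none of these motifs. Protein sequences were not analysed here.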

How the data were processed

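Hippocampal total RNA of 24 mice was sequenced as stranded libraries after removal of ribosomal RNA. The deposited values are raw counts per gene, which the authors made with cutadapt 1.16.5, STAR 2.7.2b on mm10 and featureCounts 1.6.4. Gene names and exon lengths come from GENCODE M21, which names 55144 of the 55385 identifiers. The strand setting of the counting is not stated. Each comparison was fitted on its 8 mice with the quasi-likelihood test of edgeR 4.0.16 (R 4.3.3, filterByExpr, TMM, Benjamini-Hochberg over all genes tested), and the 6 groups with an F test. The fits were tested on simulated counts. These had the same dispersion in every gene and group, so that they do not cover the wider spread of the day 13 mice. Sums of marker genes were compared by exact permutation tests over 70 arrangements (Python 3.11.15). Genes given in every mouse are those called on day 8 or day 13, the member with the largest day 13 fold change in each role without a call, and Tsc1. Syn1 and Slc17a6 were added after their values were seen. From each further release list the 2 largest rises and 2 largest falls among genes called on day 13 are named, and Scamp5 was chosen after its values were seen. Of each marker list the most abundant gene and called genes may be named. Alternatives were DESeq2 1.42.0, its size factors, no filter, all 24 mice, Xist, letter or animal series as covariates, a GC offset, no fold-change minimum, and each mouse left out. Members and lists were chosen with earlier results of these data known.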

Additional observations from a re-analysis of the deposited data

Results flagged for a closer look

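Of 102 groups of 4 mice tested over 17 genes, 7 held a mouse that stood apart, with a gap to the nearest of the others beyond the critical value of Dixon's test, and chance gives about 1 in 20 groups. Doc2b was 60.5 CPM in day 4 D, below the other mice of day 4, and 70.7 CPM in day 6 D, above the other mice of day 6. Cplx1 was 134 CPM in control B, below the other controls, and Slc17a7 was 739 CPM in control A, above the other controls. Napb was 429 CPM in rapamycin D, below the other rapamycin mice. Rab3c was 377 CPM in day 6 A, above the other mice of day 6, and Slc17a6 was 7.23 CPM in day 13 B, below the other mice of day 13.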

How the results depend on the processing

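The 27 called values of single genes kept their direction in 434 refits, of which 387 were called and 47 were not. The counts of called genes moved by over 1.5 times as follows, and the cause was not tested. Counts over all genes stand in parentheses. On day 4 the count was 0 in edgeR on all 24 mice (29) and 0 with the GC offset (118), and with no fold-change minimum it was 7, 12, 13 and 20 for day 4, 6, 8 and 13 (1054, 2519, 3331 and 6696). With the animal series as a block 1 gene was called on day 8 (934). Between day 13 and day 8, edgeR on all 24 mice called 3 (1343). Leaving out 1 mouse at a time gave 0 to 1 on day 4 (83 to 211), 1 to 4 on day 8 (586 to 1491) and 6 to 11 on day 13 (2800 to 5305). On day 6 the count stayed at 1 without each mouse (217 to 429, in place of 332). It was also 1 with the Xist covariate (195) and in edgeR on all 24 mice (84). With the replicate letter as a block the counts were 1, 1, 2 and 9 for day 4, 6, 8 and 13 (163, 299, 797 and 3546), 0 for rapamycin versus control (365), 15 for rapamycin versus day 13 (4531), 0 for day 13 versus day 8 (0) and 27 over the 6 groups (10870). The letters do not pair the mice, since residuals of mice with the same letter correlated between -0.24 and 0.121. Without TMM factors, a choice added after seeing the data, 3 marker sums on day 4, 6 on day 13 and 3 with rapamycin reached an exact p under 0.05. With 4 mice a group a small difference can be missed, and at 28208561 counts genes of few counts, such as Doc2a and Cplx3, are measured least precisely. Day 13 and the series of animal numbers cannot be told apart.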
